A study of Mus musculus with 2 samples.

Results

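The 10 genes described here are used as markers of hair follicle stem cells in mouse skin: Krt15, Lhx2, Tbx1, Lgr5, Lgr6, Lrig1, Sox9, Nfatc1, Cd34 and Sostdc1. They were found by symbol, 1 row each, among the 32285 genes counted in 2 droplet-based single-cell RNA libraries of mouse squamous skin tumours. The rows were taken by symbol and not by value, but the 10 genes were chosen with earlier results of these data known. The Eed iKO-D library came from tumours of K14CrERT2;Eed flox/flox mice given hydroxytamoxifen. Their Cre is driven by the keratin 14 promoter, needs tamoxifen to act, and is made in basal epithelial cells, not in stroma. The Ctrl-D library came from tumours of Eed flox/flox mice without Cre that received ethanol. Both treatments were topical, began at postnatal day 50 and lasted 4 days, with hydroxytamoxifen at 20 mg per ml in Eed iKO-D. Both groups carried the floxed Eed alleles, were painted with the carcinogen DMBA for up to 20 weeks, and gave tumours of the dorsal skin at 5 months of age. Cre was present, and hydroxytamoxifen given, in Eed iKO-D alone, so their part and that of Eed cannot be told apart. The number of tumours and animals per library is not given in the sources used here, and with 1 library per group differences could not be set against replicates, so p-values are not given. Intervals below are 95% intervals for counting error only.

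Hair follicles regrow from a reservoir of slowly cycling epithelial cells in a niche called the bulge, and from the hair germ just beneath it. Wnt signals, which R-spondins amplify through Lgr receptors, start regrowth, while BMP signals and Nfatc1 hold the cells at rest. Eed belongs to the core of Polycomb repressive complex 2 (PRC2), the enzyme complex behind the silencing histone mark H3K27me3, found often at promoters rich in CG dinucleotides. Lineage transcription factors are known as its targets in many tissues. Bulge cells and their descendants are among the known cells of origin of squamous skin tumours in mice.

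The members fall into 4 roles. Krt15 is a keratin of resting basal cells that is strong in the bulge. Lhx2, Tbx1, Sox9 and Nfatc1 are transcription factors: Lhx2 and Sox9 maintain bulge identity, Tbx1 acts in bulge cell renewal, and Nfatc1 restrains the cell cycle. Lgr5 and Lgr6 are R-spondin receptors, of the lower follicle and of the isthmus above the bulge, and Lrig1 is a membrane protein of the junctional zone that dampens EGF receptor signalling. Cd34 is a surface sialomucin of mouse bulge cells that endothelial cells and dermal fibroblasts also carry, and Sostdc1 is a secreted antagonist of BMP and Wnt signals. On mm10, in the GENCODE vM21 annotation, Krt15 lies at chr11:100131758-100135928, Lhx2 at chr2:38339281-38369733, Tbx1 at chr16:18580979-18590671, Lgr5 at chr10:115450311-115587780 and Lgr6 at chr1:134983301-135105276. Lrig1 lies at chr6:94604529-94700158, Sox9 at chr11:112782224-112787760, Cd34 at chr1:194938819-194961279 and Sostdc1 at chr12:36314139-36318452. No counted gene overlaps any of them on the same strand. Annotated genes on the opposite strand overlap Lhx2, Lgr5, Lrig1, Nfatc1 and Cd34.

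Upstream sequences are shown for Lhx2 and Tbx1, which were lower in Eed iKO-D, and for Lgr6 and Cd34, which were higher, so that the CG content of both kinds can be seen. RefSeq start sites on GRCm38.p6 were found for 5 of the 10 members, these and Lrig1. Each line gives the 250 bases before the start site, 5′ to 3′ on the strand of the gene, with CG dinucleotides in capitals.
Lhx2, chr2:38339031-38339280, plus strand: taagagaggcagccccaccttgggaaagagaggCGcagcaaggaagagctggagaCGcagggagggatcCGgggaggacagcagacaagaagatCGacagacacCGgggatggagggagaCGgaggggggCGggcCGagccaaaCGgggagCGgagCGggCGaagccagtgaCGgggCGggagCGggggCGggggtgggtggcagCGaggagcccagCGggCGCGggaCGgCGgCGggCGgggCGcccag
Tbx1, chr16:18590672-18590921, minus strand: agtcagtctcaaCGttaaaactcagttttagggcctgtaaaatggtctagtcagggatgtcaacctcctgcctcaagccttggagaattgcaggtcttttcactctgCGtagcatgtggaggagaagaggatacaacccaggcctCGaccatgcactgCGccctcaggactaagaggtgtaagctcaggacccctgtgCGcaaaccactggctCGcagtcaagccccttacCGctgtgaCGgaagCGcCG
Lgr6, chr1:135105277-135105526, minus strand: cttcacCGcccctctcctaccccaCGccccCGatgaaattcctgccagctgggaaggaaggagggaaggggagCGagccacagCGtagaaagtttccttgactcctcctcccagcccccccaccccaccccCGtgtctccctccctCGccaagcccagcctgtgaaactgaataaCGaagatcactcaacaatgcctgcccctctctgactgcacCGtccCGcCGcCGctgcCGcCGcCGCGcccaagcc
Cd34, chr1:194938571-194938820, plus strand: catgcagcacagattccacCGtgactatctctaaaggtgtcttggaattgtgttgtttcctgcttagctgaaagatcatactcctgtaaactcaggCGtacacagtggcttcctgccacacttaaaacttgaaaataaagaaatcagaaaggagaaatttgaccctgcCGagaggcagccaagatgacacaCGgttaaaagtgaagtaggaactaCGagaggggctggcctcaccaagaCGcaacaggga
The Lhx2 window holds 25 CG dinucleotides, a number that 10.7% of 32851 RefSeq windows of this length reach. The Lgr6 window holds 16 (25.4% of windows), the Tbx1 window 10 (37.8%) and the Cd34 window 6 (50.4%), where the median window has 6. Lhx2 and Tbx1 each have a second RefSeq start, whose windows hold 24 and 17. The window of Lrig1, which lay within 1.5-fold, is not shown and holds 26 (9.59% of windows), more than any of these. These windows were not assayed here, and the numbers describe the sequence alone.

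After filtering, 21484 Eed iKO-D and 7393 Ctrl-D cells remained, with medians of 3191 and 13037 UMIs (counts of distinct RNA molecules). Clustering without the 10 members gave 24 clusters. In 8 of them Krt5 and Krt14, the keratins of basal epidermis, summed to at least 5000 CPM (counts of the gene scaled to 1 common total of UMIs in each class), epithelial markers scored above those of other cell types and Gm42418, a locus that overlaps ribosomal RNA, stayed under 10% of UMIs, which gave 3407 Eed iKO-D and 5431 Ctrl-D cells with medians of 33785 and 15649 UMIs. These are called Krt5/Krt14-high cells below. Clusters 0, 3 and 22, with 11795 Eed iKO-D and 10 Ctrl-D cells, also passed 5000 CPM but failed both other limits and stayed unnamed: Gm42418 took 40.5%, 17.8% and 39.5% of their UMIs, and fibroblast markers scored higher than keratinocyte markers. With these 3 counted, 6 members were again at least 1.5 times lower, and Lgr6, at a log2 ratio of 0.56, lay within 1.5-fold. Clusters 7 and 19 passed 5000 CPM as well and are named neutrophil-like and mast-like from their markers. Few of the clusters were balanced: 4 held at least 50 cells of each library, while cluster 10 held 0 Eed iKO-D and 630 Ctrl-D cells, and a cluster of mostly 1 library may be that library rather than a state. In Eed iKO-D 55.2% of cells lay in unnamed clusters, against 1.41% in Ctrl-D, and were left out. Of all cell barcodes 49 occurred in both libraries, 1 of them among Krt5/Krt14-high cells. Eed itself stood at 47.1 CPM in Eed iKO-D and 52.9 CPM in Ctrl-D Krt5/Krt14-high cells. The labels do not say which exons were floxed, so a count from the 3' end checks deletion only if it lies within them. Markers of other cell types moved with the groups: the 7 fibroblast markers summed to 337 CPM in Krt5/Krt14-high cells of Eed iKO-D and 20.6 CPM in Ctrl-D, and all 7 were at least 1.5 times higher. Of 7 endothelial markers 5 were higher, with sums of 30.3 and 12.3 CPM in the same order of libraries. Of 8 macrophage or monocyte markers 7 were higher (27.1 and 4.001 CPM), and of 7 pericyte or smooth muscle markers 3 (69.8 and 89.4 CPM). No marker of these 4 lists was at 0. When cells with 5 or more UMIs of 8 stromal and immune genes, such as Col1a1 and Ptprc, were left out, 352 of 3407 Eed iKO-D and 5136 of 5431 Ctrl-D cells remained. Most Krt5/Krt14-high cells of Eed iKO-D thus held 5 or more UMIs of these stromal and immune genes, though a limit on UMIs also leaves out deeper cells more often. Where those UMIs came from was not tested. The 6 members called lower and the 2 called higher over all Krt5/Krt14-high cells kept their calls in the cells that remained.

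Most of these genes were lower in the Krt5/Krt14-high cells of Eed iKO-D tumours, and 2 were higher. Krt15, Lhx2, Tbx1, Lgr5, Nfatc1 and Sostdc1 were at least 1.5 times lower than in Ctrl-D, Lgr6 and Cd34 at least 1.5 times higher, and Lrig1 and Sox9 lay within 1.5-fold. Over all 19663 genes with at least 20 UMIs, 16.7% were lower by that measure and 39.1% higher, so the 6 of 10 members on the lower side stand against a background that leans the other way. Since the members were chosen with earlier results of these data known, this contrast is a description and not a test. Their median log2 ratio was -1.42, against 0.34 for all genes. In bulk sums of this kind, fewer cells of a state and less RNA per cell cannot be told apart.

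Krt15 stood at 84.5 CPM in Eed iKO-D and 646 CPM in Ctrl-D, a ratio of 0.131 (0.128 to 0.133). Among the transcription factors, Lhx2 stood at 0.684 CPM in Eed iKO-D and 17.6 CPM in Ctrl-D, a ratio of 0.0389 (0.0314 to 0.0478). Tbx1 had 2.45 CPM in Eed iKO-D and 19.7 CPM in Ctrl-D (ratio 0.124, 0.111 to 0.139). Lhx2 thus showed the lowest ratio of the 10, from 97 UMIs in Eed iKO-D and 1758 in Ctrl-D. Nfatc1 reached 7.62 CPM in Eed iKO-D and 29.1 CPM in Ctrl-D, a ratio of 0.262 (0.244 to 0.281). Sox9 was nearly level, at 143 CPM in Eed iKO-D and 153 CPM in Ctrl-D (ratio 0.936, 0.916 to 0.955). So the bulge factors did not move as a block: Sox9 kept its level while Lhx2 and Tbx1 did not.

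The 2 R-spondin receptors went opposite ways. Lgr5 was at 3.89 CPM in Eed iKO-D and 40.9 CPM in Ctrl-D, a ratio of 0.0951 (0.0868 to 0.104), while Lgr6 was at 30.7 CPM in Eed iKO-D and 18.2 CPM in Ctrl-D, a ratio of 1.69 (1.60 to 1.79). Lrig1 stood at 41.7 CPM in Eed iKO-D and 49.97 CPM in Ctrl-D (ratio 0.834, 0.803 to 0.866). Cd34 had the highest ratio of the 10, at 22.5 CPM in Eed iKO-D and 6.001 CPM in Ctrl-D, a ratio of 3.75 (3.44 to 4.10). Sostdc1 had 90.4 CPM in Eed iKO-D and 169 CPM in Ctrl-D, a ratio of 0.534 (0.522 to 0.547). The size of Lgr6 rests on which clusters are counted, and its direction turned to a log2 ratio of -0.20 without clusters 1, 9, 10 and 12, each of which is at least 95% from 1 library. In that setting Sostdc1 also turned, to a log2 ratio of 0.20, Lrig1 was lower by more than 1.5-fold (-0.86), and Nfatc1 (-0.49) lay within 1.5-fold.

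**Figure D1:**
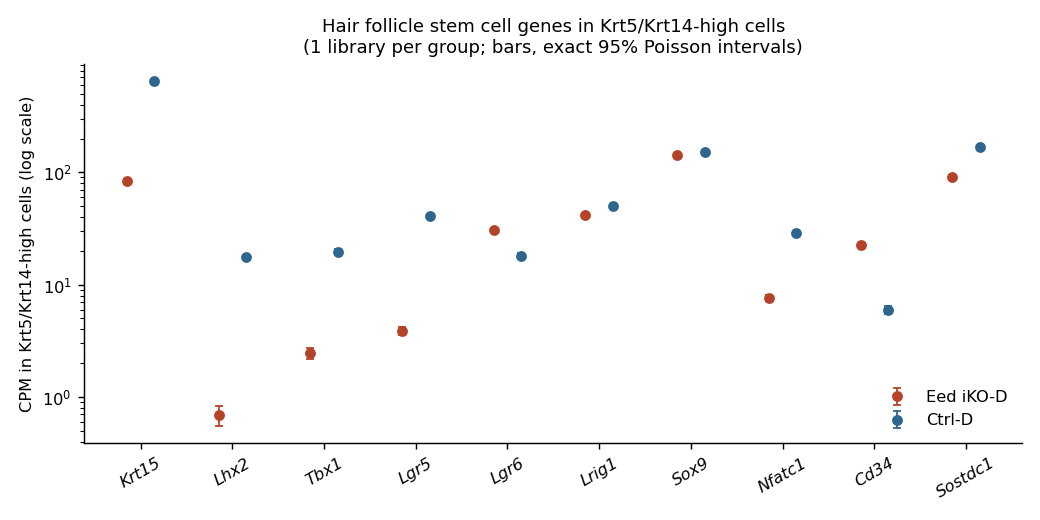
Level of each gene in Krt5/Krt14-high cells, in CPM on a log axis, with Eed iKO-D left (red) and Ctrl-D right (blue); points are 1 library each and bars are exact 95% Poisson intervals. Lhx2 has the widest gap, 0.684 CPM in Eed iKO-D against 17.6 CPM in Ctrl-D, and Lgr6 and Cd34 are the genes where Eed iKO-D lies clearly above.

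The UMIs behind these levels came from different clusters in the 2 libraries. In Ctrl-D, cluster 4, whose leading genes besides Krt15 include Ccl27a, Lmo1, Ptn and the lipid enzyme Scd1, held 1637 of the Krt5/Krt14-high cells, and it gave 83.3% of the Lgr5 UMIs, 75.5% of those of Lhx2 and 60.2% of those of Krt15. In Eed iKO-D it held 101 cells and still gave 65.5% of the Lgr5 UMIs and 59.8% of those of Lhx2, but 12.0% of those of Krt15. Cluster 1, led by genes such as Lama3, a laminin, and Nrg1, held 2198 Eed iKO-D and 115 Ctrl-D cells. It gave 87.5% of the Lgr6 UMIs, 82.8% of the Lrig1 UMIs and 78.9% of the Sox9 UMIs of Eed iKO-D, against 0.715%, 2.54% and 1.96% in Ctrl-D. Cluster 2, led by Chil4 and the stefin gene Stfa1, gave 59.9% of Krt15 and 55.6% of Sostdc1 UMIs in Eed iKO-D, against 16.5% and 29.4% in Ctrl-D. Lgr5 and Lhx2 thus sat in cluster 4 in both libraries, whereas Krt15 sat mostly in cluster 2 in Eed iKO-D and in cluster 4 in Ctrl-D.

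Without cluster 4, Krt15, Lhx2, Tbx1, Lgr5 and Nfatc1 remained at least 1.5 times lower (15.1% of all genes were lower) and Lgr6 and Cd34 higher (42.8% of all genes were higher). Sostdc1 then lay within 1.5-fold, at 89.5 CPM in Eed iKO-D and 123 CPM in Ctrl-D. Lgr6 had 30.3 CPM in Eed iKO-D and 9.38 CPM in Ctrl-D outside cluster 4, a ratio of 3.23 (2.99 to 3.51). Sox9 reached 140 CPM in Eed iKO-D and 93.7 CPM in Ctrl-D there, a ratio of 1.49 (1.45 to 1.53), where over all clusters the ratio was below 1.

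Inside cluster 4, where cells of both libraries were placed together, 5 of the 10 members lay within 1.5-fold. Krt15 was at 768 CPM in Eed iKO-D and 1619 CPM in Ctrl-D (ratio 0.474, 0.450 to 0.4999), Lhx2 at 31.0 and 55.2 CPM in the same order (ratio 0.562, 0.425 to 0.731), and Sostdc1 at 160 CPM in Eed iKO-D and 316 CPM in Ctrl-D (ratio 0.508, 0.451 to 0.570). These 3 were lower by at least 1.5-fold (17.7% of all genes were), and Nfatc1 and Cd34 were higher (33.3% of all genes were). Nfatc1 stood at 117 CPM in Eed iKO-D and 58.8 CPM in Ctrl-D, a ratio of 1.98 (1.71 to 2.29), and Cd34 at 36.4 CPM in Eed iKO-D and 12.1 CPM in Ctrl-D, a ratio of 3.02 (2.28 to 3.94). Tbx1, Lgr5, Lgr6, Lrig1 and Sox9 lay between 1.11 and 1.36 times the Ctrl-D level. Lgr5, for one, had 193 CPM in the 101 Eed iKO-D cells and 142 CPM in the 1637 Ctrl-D cells. The wide gap of Lgr5 over all Krt5/Krt14-high cells was therefore not found inside this cluster. After thinning all cells to 1500 UMIs, Nfatc1 was seen in 12.9% (7.04 to 21.0) of Eed iKO-D and 7.56% (6.32 to 8.96) of Ctrl-D cells of the cluster, and Cd34 in 4.95% (1.63 to 11.2) and 2.17% (1.52 to 3.005), so the intervals overlapped for both.

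Fibroblast markers summed to 642 CPM in cluster 4 of Eed iKO-D and 34.3 CPM in Ctrl-D. Without the cells that held 5 or more stromal or immune UMIs, 11 of its 101 Eed iKO-D cells remained. In those 11 cells Krt15 was still lower (446 CPM in Eed iKO-D and 1659 CPM in Ctrl-D) and Lgr5 not separated from Ctrl-D (91.0 and 144 CPM, ratio 0.633, 0.303 to 1.17). Cd34 had 1 UMI there, so its difference was no longer detectable, and neither was that of Nfatc1 (ratio 1.22, 0.525 to 2.41). Lhx2 had 2 UMIs and a ratio of 0.315 (0.0381 to 1.14), too few to make or drop the call. Sostdc1 turned to 510 CPM in Eed iKO-D and 315 CPM in Ctrl-D. So in these 11 cells the order of Sostdc1 was the reverse of that in the whole cluster, and the calls of Nfatc1 and Cd34 were not kept.

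Cluster 1 gave another pattern. Lgr6 was at 34.9 CPM in Eed iKO-D and 4.10 CPM in Ctrl-D, a ratio of 8.52 (4.98 to 16.01) that rests on 13 Ctrl-D UMIs. Tbx1 was at 1.19 CPM in Eed iKO-D and 25.2 CPM in Ctrl-D, a ratio of 0.0472 (0.0355 to 0.0632). In this cluster Lgr6, Sox9 (ratio 1.55) and Cd34 (ratio 1.92) were higher, where 31.5% of all genes were, and Tbx1 and Nfatc1 (ratio 0.358) were lower, where 12.5% of all genes were. After thinning, Lgr6 was seen in 6.12% (5.15 to 7.21) of Eed iKO-D and 0.909% (0.0230 to 4.96) of Ctrl-D cells of the cluster, and Tbx1 in 0.228% (0.0742 to 0.532) and 5.45% (2.03 to 11.5). Lgr5 had 98 UMIs in Eed iKO-D (0.898 CPM) and 0 in Ctrl-D, and the interval of its ratio reached down to 0.757, so no difference was detectable at this depth. Lgr6 was 10.9 times higher (6.22 to 20.7) in the 208 Eed iKO-D cells with under 5 stromal or immune UMIs. Of the 115 Ctrl-D cells, 110 held Xist and no UMI of 4 Y-linked genes, and 0 the reverse.

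In cluster 2, Nfatc1, Cd34 and Sostdc1 were higher (42.6% of all genes were) and Tbx1 lower (11% of all genes were). Sostdc1 had 371 CPM in Eed iKO-D and 159 CPM in Ctrl-D, a ratio of 2.32 (2.24 to 2.41), the reverse of its order in cluster 4. Nfatc1 had 22.4 CPM in Eed iKO-D and 11.2 CPM in Ctrl-D, but after thinning it was seen in 2.50% (1.40 to 4.08) and 2.38% (1.65 to 3.31) of cells in that order of libraries, so the share did not follow the CPM. Krt15 was nearly level in cluster 2, with 373 CPM in Eed iKO-D and 342 CPM in Ctrl-D (ratio 1.09, 1.06 to 1.12). Tbx1 had 5.62 CPM in Eed iKO-D and 12.7 CPM in Ctrl-D, a ratio of 0.442 (0.354 to 0.549). In cluster 13, led by Sprr2d, Lce3d and other genes of late epidermal differentiation, 6 members were higher (52.8% of all genes were) and Krt15, Tbx1 and Nfatc1 lower (9.17% of all genes were). Sox9 had 210 CPM in Eed iKO-D and 60.9 CPM in Ctrl-D there, a ratio of 3.44 (2.95 to 4.04). Lgr6 had 368 UMIs (34.7 CPM) in Eed iKO-D and 1 UMI (0.352 CPM) in Ctrl-D cells of this cluster, a ratio of 98.5 (17.6 to 3903). Fibroblast markers summed to 1115 CPM in cluster 13 of Eed iKO-D and 2.82 CPM in Ctrl-D (7 of 7 higher), and macrophage or monocyte markers to 67.2 and 2.82 CPM (6 of 8 higher). In its 61 Eed iKO-D cells with under 5 stromal or immune UMIs, Sox9 (ratio 4.49) and Lgr6 (125.8, from 1 Ctrl-D UMI) were still higher. Sostdc1 (1.08, 0.488 to 2.25) and Cd34 (0.825, 0.0786 to 5.04) were not, and Lgr5 had 1 UMI.

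Across the 4 shared clusters, Cd34 was higher in Eed iKO-D in 4 of 4 and Tbx1 lower in 3 of 4. Without the cells rich in stromal or immune UMIs, Cd34 stayed at least 1.5 times higher in clusters 1 (1.82) and 2 (8.73), and had 1 and 2 Eed iKO-D UMIs in clusters 4 and 13. Krt15 was lower in 2, Lgr6 and Sox9 were higher in 2, and each of these lay within 1.5-fold in the others. Nfatc1 and Sostdc1 had clusters on both sides.

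**Figure D2:**
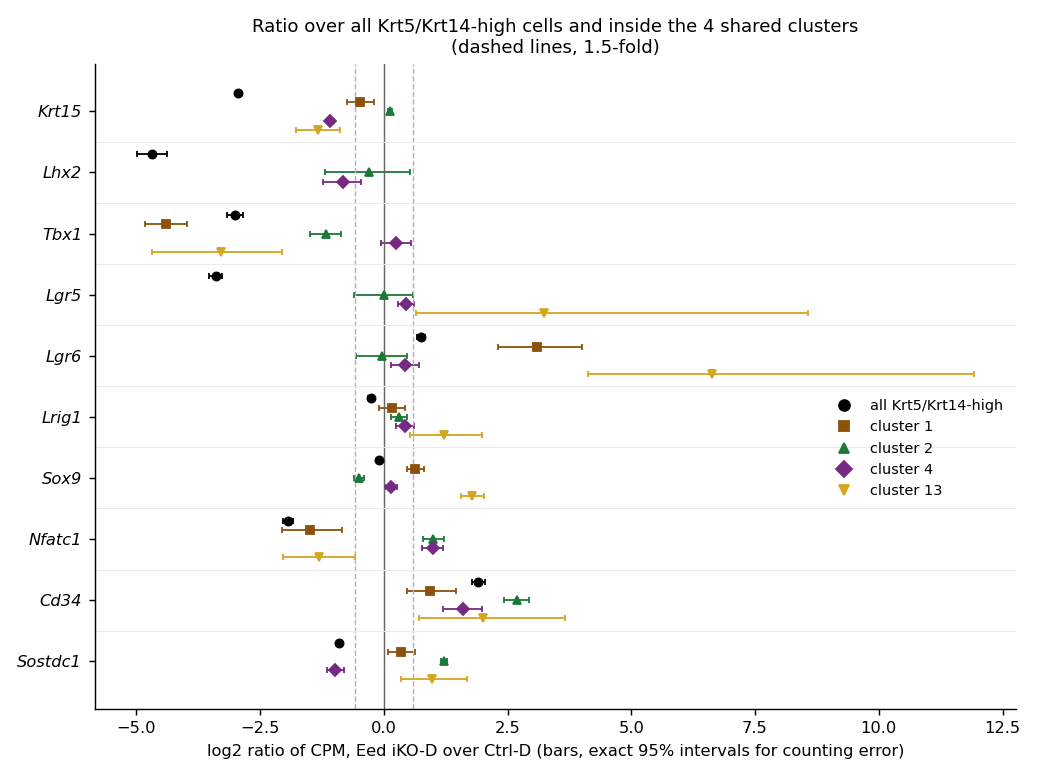
Log2 ratio of CPM, Eed iKO-D over Ctrl-D, for each gene over all Krt5/Krt14-high cells (black) and inside clusters 1, 2, 4 and 13; bars are exact 95% intervals for counting error, and genes with too few UMIs in a cluster or none in Ctrl-D are not drawn. The black points of Krt15, Lhx2 and Lgr5 lie far left of the purple points of cluster 4, while Cd34 lies right of the 1.5-fold line in every cluster.

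At equal depth, each cell was thinned to 1500 UMIs, and shares of cells with a UMI were set beside those of neutrophil-like cells. These should lack most of these transcripts (Nfatc1 is also made by some blood cells) and so show what free RNA gives in them. Fibroblast markers summed to 2809 CPM in neutrophil-like and 337 CPM in Krt5/Krt14-high cells of Eed iKO-D. Thinning does not level such a gap, so the neutrophil-like shares may be too high a floor for Krt5/Krt14-high cells. Before thinning the median depth of neutrophil-like cells was 4724 UMIs in Eed iKO-D. Krt15 was seen in 8.55% (7.63 to 9.54) of Eed iKO-D and 33.4% (32.1 to 34.6) of Ctrl-D Krt5/Krt14-high cells. Before thinning the shares were 24.1% and 55.2%. Lgr6 was seen in 4.95% of Eed iKO-D and 3.14% of Ctrl-D cells, and in 0.315% of Eed iKO-D neutrophil-like cells. Lhx2 (0.0884%) and Lgr5 (0.766%) in pooled Eed iKO-D Krt5/Krt14-high cells did not exceed the neutrophil-like shares of that library (0.0789% and 0.868%) beyond counting error. With a floor that may be too high, this cannot decide whether they are background there. Nfatc1 was seen in 1.47% of Eed iKO-D Krt5/Krt14-high cells and 6.62% of its neutrophil-like cells, which therefore give no background for it. In cluster 4 of Eed iKO-D, by contrast, Lgr5 was seen in 15.8% (9.33 to 24.4) of cells and Lhx2 in 2.97% (0.617 to 8.44), against 14.0% and 8.25% in cluster 4 of Ctrl-D. Cd34 was seen in 3.77% (3.16 to 4.47) of Eed iKO-D Krt5/Krt14-high cells, 2.92% (2.06 to 4.00) of its neutrophil-like cells, and 0.977% of Ctrl-D Krt5/Krt14-high cells. Over all clusters, then, the Cd34 share of Eed iKO-D is not separated from that of its neutrophil-like cells, which may be too high a floor. In cluster 2 it was 6.32% (4.51 to 8.58) in Eed iKO-D and 0.629% in Ctrl-D. In clusters 1 (3.43%, 2.70 to 4.28), 4 (4.95%, 1.63 to 11.2) and 13 (1.91%, 0.877 to 3.60) of Eed iKO-D the share was not separated from that of neutrophil-like cells.

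Once thinned, few Krt5/Krt14-high cells held UMIs of at least 3 members other than Krt15. Before thinning, Sox9 was seen in 66.4% of Eed iKO-D and 56.3% of Ctrl-D Krt5/Krt14-high cells. Lrig1 was seen in 55.5% and 42.1% in that order, but Lhx2 in 1.53% and 12.5%. How many members single cells held before thinning was not counted, so the shares below describe thinned cells only. After thinning, 1.15% (0.819 to 1.57) of Eed iKO-D Krt5/Krt14-high cells had UMIs of at least 3 members other than Krt15, against 4.30% (3.77 to 4.88) in Ctrl-D. Inside cluster 4 the shares were 10.9% (5.56 to 18.7) in Eed iKO-D and 12.4% (10.8 to 14.1) in Ctrl-D, a difference that was not detectable at this depth. Neutrophil-like cells of Eed iKO-D had such a combination in 0.158% of cells. Cluster 4 made up 101 of 3407 Krt5/Krt14-high cells in Eed iKO-D and 1637 of 5431 in Ctrl-D.

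Next, cells were gated on Krt15 itself, at 10 or more Krt15 UMIs per 10000. Krt15-high cells made up 4.14% (3.49 to 4.86) of Krt5/Krt14-high cells in Eed iKO-D, 141 of 3407, and 21.9% (20.8 to 23.1) in Ctrl-D, 1191 of 5431. The gate cut a continuous range: 90 Eed iKO-D cells lay between 10 and 20 per 10000 and 112 between 5 and 10, against 489 and 484 in Ctrl-D. Depth was so low in 3 Eed iKO-D and 24 Ctrl-D Krt5/Krt14-high cells that a single Krt15 UMI would suffice to pass, whether or not they held any. The median Krt15-high cell had 15.6 Krt15 UMIs per 10000 in Eed iKO-D and 23.5 in Ctrl-D. In cluster 2 the shares were 15.3% (12.5 to 18.4) in Eed iKO-D and 11.9% (10.3 to 13.6) in Ctrl-D. In cluster 4 they were 29.7% (21.0 to 39.6) in Eed iKO-D and 45.1% (42.7 to 47.5) in Ctrl-D. Of all Krt15-high cells in Eed iKO-D, 65.2% lay in cluster 2 and 21.3% in cluster 4, whereas in Ctrl-D 14.8% lay in cluster 2 and 62.0% in cluster 4.

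**Figure D3:**
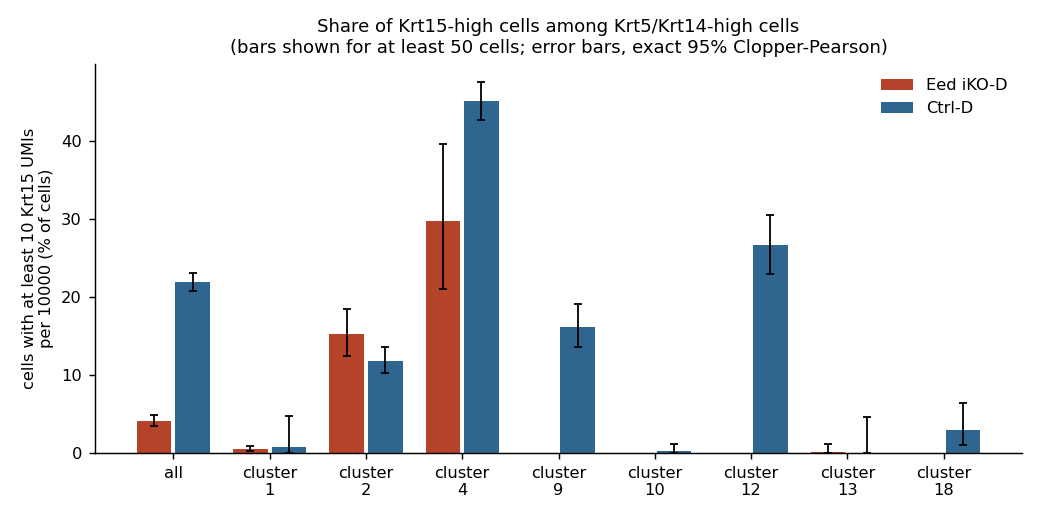
Share of cells with at least 10 Krt15 UMIs per 10000 among all Krt5/Krt14-high cells and in each cluster with at least 50 cells, Eed iKO-D left (red) and Ctrl-D right (blue); error bars are exact 95% Clopper-Pearson intervals. The overall shares are 4.14% and 21.9%, while cluster 2 holds 15.3% in Eed iKO-D and 11.9% in Ctrl-D.

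Within Krt15-high cells the other 9 members split again. Lhx2, Tbx1, Lgr5, Lgr6, Lrig1 and Sox9 were at least 1.5 times lower in Eed iKO-D (21.7% of all genes were), Cd34 and Sostdc1 higher (25.3% of all genes were), and Nfatc1 lay within 1.5-fold. Lhx2 stood at 9.39 CPM in Eed iKO-D and 70.3 CPM in Ctrl-D (ratio 0.133, 0.0909 to 0.189). Lgr5 stood at 46.4 CPM in Eed iKO-D and 167 CPM in Ctrl-D (ratio 0.278, 0.236 to 0.327). The receptor Lgr6, higher over all Krt5/Krt14-high cells, was lower among the Krt15-high, with 17.6 CPM in Eed iKO-D and 47.5 CPM in Ctrl-D (ratio 0.371, 0.280 to 0.482). Sostdc1 reached 768 CPM in Eed iKO-D and 384 CPM in Ctrl-D, a ratio of 1.9995 (1.91 to 2.09). Without cells rich in stromal or immune UMIs, 18 of the 141 Eed iKO-D cells remained, 15 of them in cluster 2 and 2 in cluster 4, where there had been 92 and 30. The 18 cells held 0 UMIs of Lhx2 and Tbx1 and 1 of Lgr5. The upper bounds of the Lhx2 and Tbx1 ratios, 0.169 and 0.213, lay above the ratios before, so no further drop was detectable. The Lgr5 ratio was 0.0195 (0.000493 to 0.109), in a changed mix of clusters. The Krt15-low remainder, 3266 Eed iKO-D and 4240 Ctrl-D cells, matched the calls over all Krt5/Krt14-high cells for the other 9 members. Of these, 5 were lower (15.6% of all genes were) and Lgr6 and Cd34 higher (41.5% of all genes were). Krt15 itself sets the gate and is not counted. Lgr6 stood at 31.1 CPM in Eed iKO-D and 12.1 CPM in Ctrl-D Krt15-low cells, a ratio of 2.56 (2.39 to 2.75).

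The 2 sets of Krt15-high cells came from different clusters, and the order of levels differed with the cluster. In Krt15-high cells of cluster 4, 30 in Eed iKO-D and 738 in Ctrl-D, only Sostdc1 was lower (ratio 0.606, 0.493 to 0.738; 22.9% of all genes were lower), and Nfatc1 (2.86) and Cd34 (3.38) were higher (27.5% of all genes were). Lgr5 had 338 CPM in these Eed iKO-D cells and 267 CPM in these Ctrl-D cells, and Sox9 had 381 CPM and 373 CPM in that order. Lhx2 had 70.7 CPM in Eed iKO-D and 103 CPM in Ctrl-D, a ratio of 0.684 (0.462 to 0.977) from 31 Eed iKO-D UMIs. In Krt15-high cells of cluster 2, 92 in Eed iKO-D and 176 in Ctrl-D, Tbx1 (0.161) and Sox9 (0.592) were lower (16.5% of all genes were), and Nfatc1 (3.36), Cd34 (5.10) and Sostdc1 (2.02) were higher (35.6% of all genes were). Lhx2 and Lgr5 were scarce in these cluster 2 cells of both libraries, with 1 and 6 UMIs of Lhx2 and 7 and 13 of Lgr5. Krt15-high cells thus differed by cluster in these tumours: Lhx2 and Lgr5 UMIs lay mostly in those of cluster 4, while Sostdc1 was higher in those of cluster 2 than in those of cluster 4. Of the 30 Eed iKO-D cells from cluster 4, 2 had under 5 stromal or immune UMIs.

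Each gene had its own order of levels across the Krt5/Krt14-high clusters and named classes with at least 50 cells. In Ctrl-D, Krt15 was highest in cluster 4 (1619 CPM), followed by cluster 12, which histone genes lead (685), cluster 9 (421) and cluster 2 (342), and the intervals of these neighbours did not overlap. Lhx2 was highest in hair cells (86.2 CPM), then in cluster 4 (55.2) and cluster 12 (22.8), with no overlap among these. Tbx1 was highest in cluster 4 (43.0 CPM), while clusters 12 (28.1) and 1 (25.2) could not be ranked. Lgr5, Lgr6, Lrig1, Sox9 and Sostdc1 were also highest in cluster 4, at 142, 46.0, 109, 339 and 316 CPM. Sox9 came next in cluster 18 (235 CPM), a cornifying state led by Lor and Lce1m. Nfatc1 in cluster 4 (58.8 CPM) was not separated from T cell-like cells (52.9), and Cd34 was far higher in fibroblast-like cells (510 CPM) than in cluster 4 (12.1).

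In Eed iKO-D, cluster 4 was again the highest of 11 units for Krt15, Lhx2, Tbx1, Lgr5, Lgr6, Lrig1 and Sox9. The second place changed with the gene: cluster 2 for Krt15 (373 CPM), fibroblast-like cells for Lgr5 (138), clusters 1 (34.9) and 13 (34.7) for Lgr6, and cluster 13 for Sox9 (210). Sostdc1 was highest in cluster 2 (371 CPM), ahead of cluster 4 (160).

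**Figure D4:**
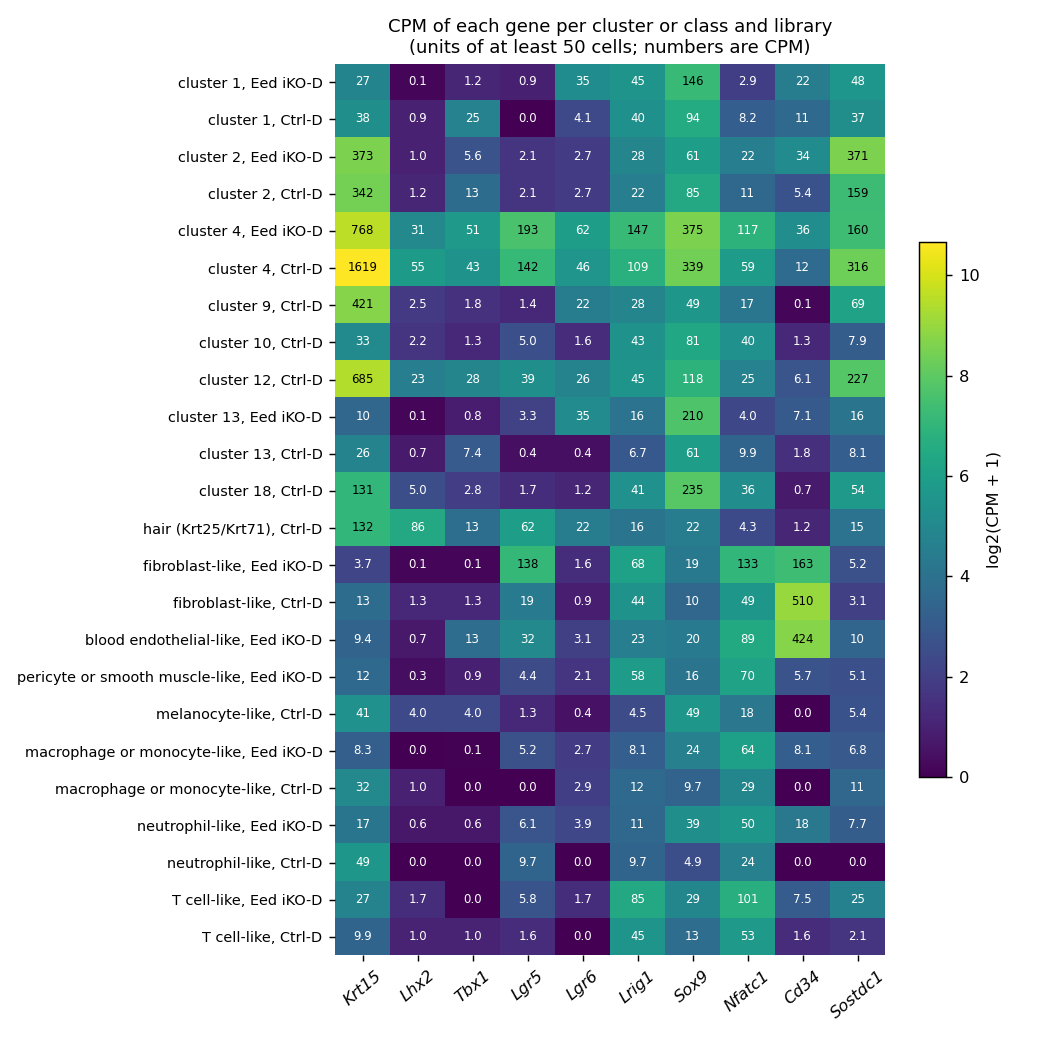
CPM of each gene (columns) in each Krt5/Krt14-high cluster and each named class with at least 50 cells (rows, Eed iKO-D above Ctrl-D), coloured by log2(CPM + 1). Mast-like cells are not drawn. The cluster 4 rows are high in nearly every column in both libraries, Lgr5 is also high in Eed iKO-D fibroblast-like cells (138 CPM), and Cd34 peaks in Ctrl-D fibroblast-like cells (510 CPM).

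Hair cells, a cluster named from hair matrix and inner root sheath markers and led by Krt25, Krt35, Krt28 and Krt71, were nearly all from Ctrl-D. It held 9 Eed iKO-D and 514 Ctrl-D cells, so the libraries were not compared in it. Set against Krt5/Krt14-high cells of Ctrl-D, hair cells had 4.90 times the Lhx2 level (4.48 to 5.36), with 86.2 and 17.6 CPM, and 1.52 times the Lgr5 level (1.38 to 1.67), with 62.1 and 40.9 CPM. Those were the members at least 1.5 times higher, where 29.5% of all genes were. Krt15, Lrig1, Sox9, Nfatc1, Cd34 and Sostdc1 were at least 1.5 times lower, where 26.1% of all genes were. Sox9 stood at 21.8 CPM in hair cells and 153 CPM in Krt5/Krt14-high cells, and Sostdc1 at 15.5 CPM and 169 CPM. Against cluster 4 alone, Lhx2 was still higher in hair cells (1.56 times, 1.42 to 1.72), and Lgr5 was lower (0.438, 0.397 to 0.483). When hair cells of Ctrl-D were taken cell by cell from Krt25 and Krt71, 160 cells passed, and 152 of these were among the 514 cells of the cluster. Lhx2 then stood at 45.3 CPM, above Krt5/Krt14-high cells but below cluster 4 (55.2 CPM), and Lgr5 at 24.97 CPM, below Krt5/Krt14-high cells, so the order of Lgr5 turned and that of Lhx2 against cluster 4 did too.

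At equal depth, fibroblast-like cells of Eed iKO-D had a UMI of Lgr5, Nfatc1 and Cd34 in 9.38%, 14.5% and 20.5% of cells, against 0.868%, 6.62% and 2.92% in its neutrophil-like cells. In fibroblast-like cells, 2351 in Eed iKO-D and 248 in Ctrl-D, Lgr5 stood at 138 CPM in Eed iKO-D and 19.2 CPM in Ctrl-D, a ratio of 7.20 (5.36 to 9.92). Nfatc1 stood at 133 CPM in Eed iKO-D and 48.8 CPM in Ctrl-D (ratio 2.73, 2.27 to 3.32), and Cd34 at 163 CPM in Eed iKO-D and 510 CPM in Ctrl-D (ratio 0.319, 0.3001 to 0.339). In this class Krt15 and Cd34 were lower (20% of all genes were), and 6 of the 8 members with enough UMIs were higher (22.3% of all genes were). Of those 6, the intervals of Lgr6 and Sostdc1 include 1. Pericyte or smooth muscle markers summed to 1392 CPM in this class of Eed iKO-D and 473 CPM in Ctrl-D (6 of 7 higher), and macrophage or monocyte markers to 60.1 and 9.15 CPM (5 of 8 higher); their part in these values was not tested. Between the libraries, the thinned share of Lgr5 was 9.38% (8.23 to 10.6) of Eed iKO-D and 1.67% (0.456 to 4.21) of Ctrl-D fibroblast-like cells. Lgr5 in these tumours was therefore at a higher level in fibroblast-like than in pooled Krt5/Krt14-high cells of Eed iKO-D (138 and 3.89 CPM), and at a lower one in Ctrl-D (19.2 and 40.9 CPM).

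The fibroblast-like class was made of clusters 5 and 8 in different parts. Cluster 5, led by Prg4, Clec3b and Pi16, held 1423 Eed iKO-D and 211 Ctrl-D cells, and in it Lgr5 had 103 CPM in Eed iKO-D and 4.66 CPM in Ctrl-D, a ratio of 22.1 (11.2 to 51.3) that rests on 8 Ctrl-D UMIs. In cluster 5 Lgr5, Lrig1, Sox9 and Nfatc1 were higher (21.8% of all genes were), and Cd34 was lower (22.5% of all genes were), with 284 CPM in Eed iKO-D and 664 CPM in Ctrl-D. Cluster 8, led by Mmp13, Grem1 and Tnn, held 928 Eed iKO-D and 37 Ctrl-D cells. Lgr5 had 183 CPM in Eed iKO-D and 62.3 CPM in Ctrl-D there, and Cd34 had 7.44 CPM and 53.6 CPM in the same order. Other stromal classes were compared only within Eed iKO-D, since Ctrl-D had 19 endothelial-like and 36 pericyte-like cells. Endothelial-like cells of Eed iKO-D had 424 CPM of Cd34 and 31.9 CPM of Lgr5. The Lgr5 UMIs of the endothelial-like class lay in 2.79% of its cells. In cluster 20, an unnamed cluster with Wif1 and Rspo3 among its leading genes and with 25 Eed iKO-D and 94 Ctrl-D cells, Sostdc1 stood at 6.57 CPM in Eed iKO-D and 854 CPM in Ctrl-D. No other Ctrl-D cluster with at least 50 cells had a higher Sostdc1 level.

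**Figure D5:**
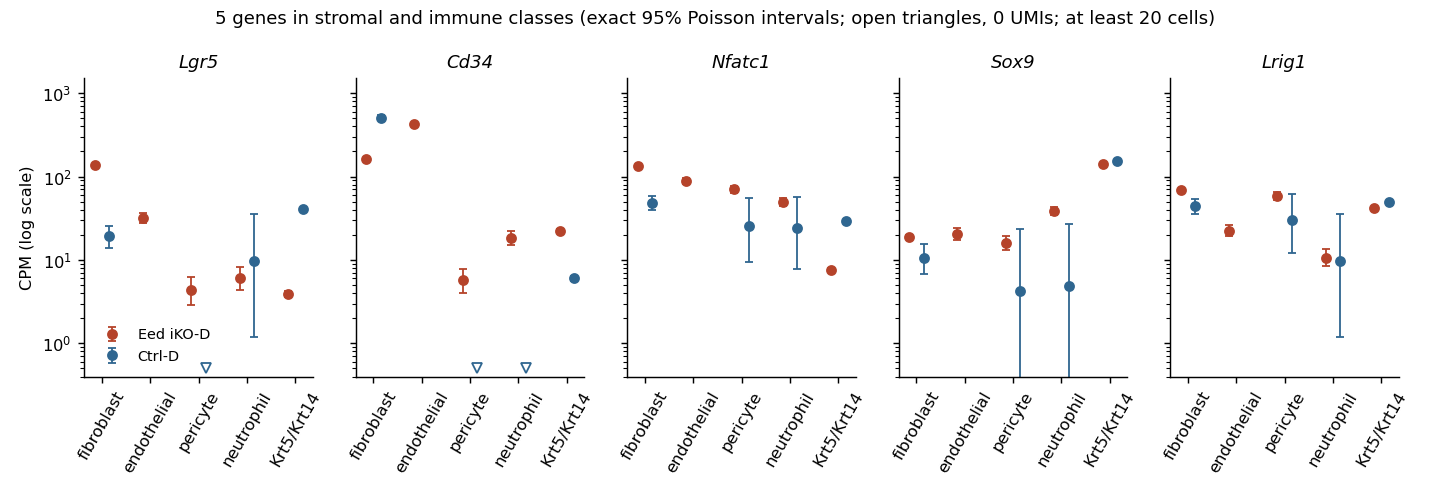
CPM on a log axis of 5 genes in fibroblast-like, endothelial-like, pericyte-like, neutrophil-like and Krt5/Krt14-high cells, Eed iKO-D left (red) and Ctrl-D right (blue); bars are exact 95% Poisson intervals, open triangles mark 0 UMIs, and Ctrl-D endothelial-like cells (19) are not drawn. Lgr5 is higher in Eed iKO-D fibroblast-like cells (138 against 19.2 CPM), and Cd34 is lower there (163 against 510 CPM).

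Both libraries held cells with Xist UMIs and no UMIs of 4 Y-linked genes, and cells with the reverse, so each held RNA of both sexes. Among Krt5/Krt14-high cells these numbered 1797 and 552 in Eed iKO-D and 2673 and 1742 in Ctrl-D. In Ctrl-D, Sostdc1 stood at 255 CPM in Xist-positive and 65.5 CPM in Y-positive cells, and Krt15 at 873 and 373 CPM, so members differed between cells of 1 library by several-fold. With Eed iKO-D set over Ctrl-D, Lhx2 had log2 ratios of -5.01 in Xist-positive and -4.50 in Y-positive cells. Lgr5 had -3.99 and -2.86, and Cd34 had 1.60 and 2.19, all on the same side. Lgr6 had 0.99 in Xist-positive and -0.30 in Y-positive cells, and Sostdc1 had -2.16 and 0.30. In these values sex and the animals of each sex cannot be told apart.

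Over all Krt5/Krt14-high cells, other bulge and hair germ genes went both ways. Of 38 other bulge and hair germ genes, 14 were at least 1.5 times higher and 15 lower in Eed iKO-D Krt5/Krt14-high cells, where 39.1% and 16.7% of all genes were, with a median log2 ratio of -0.05 against 0.34 for all genes. The share on the higher side was thus near that of all genes. Postn, a matrix protein, stood at 85.5 CPM in Eed iKO-D and 438 CPM in Ctrl-D (ratio 0.195), and Krt75, a keratin of the companion layer, at 0.0917 CPM and 3.29 CPM in that order (0.0279). The Wnt inhibitor Wif1 had 0.656 CPM in Eed iKO-D and 3.01 CPM in Ctrl-D (0.218). Pthlh, which encodes a secreted parathyroid hormone-like peptide, stood at 293 CPM in Eed iKO-D and 46.8 CPM in Ctrl-D (6.27). Without cluster 4, 19 of the 37 genes measured were higher and 7 lower, where 42.8% and 15.1% of all genes were. Inside each of the 4 shared clusters more were higher than lower. In cluster 1, 24 of 36 were higher and 1 lower (31.5% and 12.5% of all genes). In cluster 2, 25 of 35 were higher and 0 lower (42.6% and 11%). In cluster 4, 18 of 38 were higher and 4 lower (33.3% and 17.7%). In cluster 13, 22 of 31 were higher and 1 lower (52.8% and 9.17%).

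Of 15 upper follicle and sebaceous genes, 9 were lower and 3 higher, where 16.7% and 39.1% of all genes were. Inside cluster 4 the order turned, with 4 lower and 7 higher, where 17.7% and 33.3% of all genes were. Without cluster 4, 10 were lower and 3 higher, where 15.1% and 42.8% of all genes were. The 4 genes named next had the largest changes over all clusters, and all 4 were lower. Krt79, a keratin of the follicle opening, had 42.4 CPM in Eed iKO-D and 451 CPM in Ctrl-D (ratio 0.0940). The defensin Defb6 had 16.4 CPM in Eed iKO-D and 344 CPM in Ctrl-D (0.0477), and the protease inhibitor Cst6 had 70.2 CPM in Eed iKO-D and 906 CPM in Ctrl-D (0.0775). Pparg, the lipid regulator of sebocytes, had 0.388 CPM in Eed iKO-D and 2.03 CPM in Ctrl-D (0.191).

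Among 36 measured Wnt and R-spondin genes, to which Lgr5 and Lgr6 belong by function, 13 were higher and 10 lower, where 39.1% and 16.7% of all genes were, so the higher side was near the share of all genes. Lef1, a Wnt effector, had 0.381 CPM in Eed iKO-D and 3.78 CPM in Ctrl-D (ratio 0.101), and the ligand Wnt3 had 4.02 CPM in Eed iKO-D and 37.1 CPM in Ctrl-D (0.108). Nkd2, an inhibitor, had 8.87 CPM in Eed iKO-D and 0.470 CPM in Ctrl-D (18.9). Sfrp2, which fibroblasts also make, had 3.06 CPM in Eed iKO-D and 0.230 CPM in Ctrl-D (13.3), and the part of fibroblast RNA in that level was not tested.

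Of 19 measured BMP pathway genes 7 were lower and 2 higher, where 16.7% and 39.1% of all genes were. The ligand Bmp4 had 0.607 CPM in Eed iKO-D and 4.12 CPM in Ctrl-D (ratio 0.147), and Bmp6 had 5.89 CPM in Eed iKO-D and 15.8 CPM in Ctrl-D (0.374). The BMP target genes Id1 and Id3 had 76.1 and 87.7 CPM in Eed iKO-D and 188 and 217 CPM in Ctrl-D, with ratios of 0.404 for each. Outside cluster 4, however, 7 of the 19 were higher and 3 lower, near the 42.8% and 15.1% of all genes.

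The 3 smaller lists hold 8 to 12 genes each, too few for a share to be set closely against the 39.1% of all genes that were higher and the 16.7% that were lower. The first list holds 8 genes: EGF receptor genes, the other receptors Met and Ret, and Lrig paralogues. Of these, 2 were higher, Met (147 CPM in Eed iKO-D and 52.1 CPM in Ctrl-D) and Lrig2 (30.3 and 16.5 CPM). Another 3 were lower, among them Erbb4 (0.296 and 1.85 CPM) and Lrig3 (8.90 and 19.8 CPM). The EGF receptor genes Egfr (ratio 1.36), Erbb2 (1.21) and Erbb3 (0.859) lay within 1.5-fold. Of 12 genes on the NFAT and calcineurin list, which also holds Cdk4 and Bmp4, 3 were higher and 2 lower. The higher ones were Nfat5 (ratio 1.73), the calcineurin subunit Ppp3ca (1.73) and its paralogue Ppp3cc (1.94). The lower ones were Cdk4 (0.659) and Bmp4 (0.147), so no NFAT or calcineurin gene of the list was lower by 1.5-fold. Of 8 measured Sox9 targets and partners 2 were higher and 3 lower: the matrix gene Fn1 had 16.5 CPM in Eed iKO-D and 6.73 CPM in Ctrl-D, the partner Sox6 had 32.1 and 51.5 CPM, Mia had 0.3598 and 2.72 CPM, and Krt17 had 914 and 2192 CPM in that order.

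The genes whose levels ran most like each member over 29 units, each a cluster in 1 library with at least 50 cells, are given as a description, since units of 1 library share depth and free RNA. Krt15 ran closest to Apoc1 (Pearson r = 0.87), Lrrc31 and Pou3f1. Lhx2 ran closest to Lgals12 (r = 0.83), Gnmt and Bex1, and Tbx1 to C1qtnf12 (r = 0.77), Zfp326 and Zfp711. Lgr5 ran closest to Il13ra2 (r = 0.74), Ror2 and Adamts17, and Lgr6 to Usp43 (r = 0.84), Fgfr2 and Arhgef19. Lrig1 ran closest to Esyt2 (r = 0.76), Sox9 to Celsr2 (r = 0.88), Nfatc1 to Tns1 (r = 0.72), Cd34 to Lbp (r = 0.84) and the endothelial receptor Tek (r = 0.84), and Sostdc1 to Rtn4r (r = 0.86). Among the members themselves, Krt15 with Lhx2 (r = 0.74), Lhx2 with Tbx1 (0.73), Krt15 with Tbx1 (0.71) and Krt15 with Sostdc1 (0.70) had the highest values. Lgr5 with Krt15 had 0.13, and fibroblast-like cells of Eed iKO-D held 138 CPM of Lgr5 and 3.66 CPM of Krt15.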

How the data were processed

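Tumour cells were captured with 10x Genomics 3' chemistry version 2 after dead cell removal, per the labels' protocols, and the authors deposited 1 matrix of whole-number UMI counts per library and gene. Cell Ranger is given as version 2.1.0 in the labels' protocols, 7.1.0 in the file headers and 8.0 in the submitters' processing notes, with build mm10. Cells with at least 500 genes and at most 15% mitochondrial UMIs were kept (96.5% of 22259 Eed iKO-D barcodes and 93.6% of 8039 Ctrl-D barcodes; 289511009 and 120500892 UMIs in all). Scrublet, run in scanpy 1.11.5, marked 0 Eed iKO-D cells, so it did not work there, and 129 Ctrl-D cells, which were removed. Cells were clustered with leidenalg 0.10.2 (1996 variable genes without the members, 50 components, 15 neighbours, resolution 1.0) and named from fixed markers. UMIs were summed per library and cluster or class and given as CPM. A gene counted as higher or lower at 1.5-fold, given 20 or more UMIs over the 2 libraries. Ratios have exact conditional binomial intervals, levels exact Poisson intervals and shares Clopper-Pearson intervals, all at 95%, for counting error only. For shares at equal depth, cells were thinned to 1500 UMIs, leaving out shallower ones. The code was tested on simulated data. All members are named. Of each neighbour list, up to 4 genes with the largest change among those past 1.5-fold and with at least 100 UMIs are named, and for each member the nearest genes by Pearson r. Egfr, Erbb2, Erbb3, Ret and Cdk4 are named besides, to show what their lists hold. Members and lists were chosen with earlier results of these data known. Promoter windows came from RefSeq and gene positions from GENCODE vM21.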

Additional observations from a re-analysis of the deposited data

Results flagged for a closer look

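For Nfatc1 and Sostdc1 the shared clusters fell on both sides of the 1.5-fold line, and the difference between clusters was not tested. The Nfatc1 ratio of Eed iKO-D over Ctrl-D was 1.999 in cluster 2 and 1.98 in cluster 4, but 0.358 in cluster 1 and 0.402 in cluster 13. At equal depth the share of cells with Nfatc1 in cluster 2 was 2.50% in Eed iKO-D and 2.38% in Ctrl-D. The Sostdc1 ratio was 2.32 in cluster 2 and 1.97 in cluster 13, but 0.508 in cluster 4. In cluster 4, the 11 Eed iKO-D cells with under 5 stromal or immune UMIs gave a Sostdc1 ratio of 1.62 (1.22 to 2.10), and in cluster 13 the 61 such cells gave 1.08 (0.488 to 2.25).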

How the results depend on the processing

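Over 19 alternatives 5 to 7 members were called lower in Krt5/Krt14-high cells, and over 21 alternatives 6 were called lower in Krt15-high cells. The number called higher was 1 instead of 2 relative to the median of all genes, with each cell given the same weight, at 2-fold, without the clusters held to 95% by 1 library (1, 9, 10 and 12), in cells with Y-linked genes only, and with the unnamed clusters 0, 3 and 22 counted. In Krt15-high cells it was 1 at 2-fold and 3 after thinning, in Xist-positive cells and without cluster 4, where Nfatc1 was higher (log2 ratios of 0.66, 1.13 and 0.69); in Y-positive cells Nfatc1 was at -1.11. Lgr6 turned to log2 ratios of -0.20 without the clusters held to 95% by 1 library and -0.30 in Y-positive cells, and Sostdc1 turned to 0.20 and 0.30 in the same settings. The Krt15-high share was 5.11% in Eed iKO-D without cells holding 5 or more stromal or immune UMIs, 0.922% when Krt5/Krt14-high cells were taken cell by cell, and 1.03% with clusters 0, 3 and 22. With totals that leave out mitochondrial, ribosomal protein and 2 nuclear transcripts it was 5.64% in Eed iKO-D and 27.0% in Ctrl-D, without the 95% clusters 10.3% and 27.1%, at a gate of 5 per 10000 7.43% and 30.8%, and at 20 per 10000 1.497% and 12.9%. It was 2.11% and 30.0% in Xist-positive cells, 5.07% and 12.7% in Y-positive cells, and 3.36% and 11.9% without cluster 4, in the same order of libraries. In Ctrl-D it was 27.6% in the 4 shared clusters and 24.8% without cluster 10. In each of these settings it was lower in Eed iKO-D. Of 368 log2 ratios of single members under alternatives, 194 moved by less than their counting interval and the rest by more, and 8 changed sign. Beside the 4 of Lgr6 and Sostdc1 these were Sox9 (0.58) and Lrig1 (0.37) without cluster 4. The rest were Nfatc1 in Krt15-high cells, in Y-positive cells and without stromal or immune UMIs (-0.08). In the main setting Sox9 and Lrig1 lay within 1.5-fold over all Krt5/Krt14-high cells, and Nfatc1 within 1.5-fold in Krt15-high cells. The cause was not tested.

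The splits by Xist and Y-linked genes, the runs without clusters 4 and 10 and with 0, 3 and 22, and the values within clusters without stromal or immune UMIs were chosen after seeing the data. No paired analysis was possible because each group has 1 library. The limits are that single library per group, 0 doublets called in Eed iKO-D, the 55.2% of its cells in unnamed clusters, and UMIs of stromal or immune genes in most of its Krt5/Krt14-high cells. The source of those UMIs was not tested, and free RNA and doublets cannot be told apart here. Depth limits Lhx2 most, with 97 UMIs in Krt5/Krt14-high cells of Eed iKO-D.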
